A study of Arabidopsis thaliana with 12 samples.

Results

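The genotype effect of camta3-D, meaning the change of a transcript in camta3-D relative to Col-0 wild-type leaves, was compared between 2 strains of Pseudomonas syringae pv. tomato DC3000 (Pst), one delivering AvrRpm1 and one delivering AvrRps4. All libraries labelled with these strains were taken, which were 8 of the 12 libraries of the series, 2 for each combination of genotype and strain. Leaves of 4-week-old Arabidopsis thaliana plants, Col-0 or camta3-D, were infiltrated with Pst DC3000 AvrRpm1 or Pst DC3000 AvrRps4 at an OD600 of 0.001 and sampled at 4 h. Each sample held 6 leaf discs from 6 plants, and polyadenylated RNA was sequenced. The other 4 libraries, from leaves given the flagellin peptide flg22, were not compared. They entered the fit to estimate the spread, and also the choice of genes tested and the scaling of counts. The measure of interest was the interaction, on the log2 scale, which is the genotype effect after AvrRpm1 minus the genotype effect after AvrRps4. A negative interaction means that camta3-D was lower relative to wild type after AvrRpm1 than after AvrRps4.

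CAMTA3 is a calmodulin-binding transcription activator that has been proposed to restrain defence genes, including those of salicylic acid signalling, in unstressed leaves. According to the study, autoimmunity of camta3 knockout plants comes mainly from ectopic activation of intracellular receptors. It therefore calls it unclear whether CAMTA proteins raise or lower transcription. The camta3-D line (also called sr1-4D) carries a dominant alanine-to-valine substitution in CAMTA3 and is a single mutant line in the Col-0 background. AvrRpm1 leads to modification of the plant protein RIN4, which the coiled-coil receptor RPM1 guards with the help of NDR1. AvrRps4 is sensed in the nucleus by the paired TIR-type receptors RRS1 and RPS4, whose signal runs through EDS1 with PAD4 or SAG101 and the helper receptors of the ADR1 and NRG1 families. Both strains also bring the flagellin and the other effectors of Pst DC3000, and this bacterium makes coronatine, a mimic of jasmonate. No mock-infiltrated or untreated library was analysed here, so a genotype effect after a strain cannot be told apart from one present before infiltration, and the interaction is free of a constant genotype difference only to the extent that effects add on the log2 scale.

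Gene counts per library ranged from 22.8 to 25.2 M, with a median of 24.4 M over the 8. The highest-counted gene in each was LHCB1.3, a light-harvesting protein gene of green leaves, with 3.05 to 4.89% of gene counts, although reads shared with its near-identical copies cannot be assigned anew. Replicate 2 of camta3-D after AvrRpm1 stood apart in its alignments. Those to more than 1 place made up 7.78%, against 2.56 to 3.43% in the other 7 libraries. The distance between the replicates of this group was 2.21 (root-mean-square log2 difference over the 500 most different genes), against 1.48 to 1.71 in the other 3 groups. This distance does not tell which replicate was unusual, and replicate 1 lay farther than replicate 2 from every wild-type library. Both camta3-D libraries after AvrRps4 had more of their counts in their 10 highest genes (15.4 to 15.7%) than the other 6 (10.2 to 12.9%), and fewer in chloroplast-encoded genes (0.907 to 0.912%, against 1.195 to 1.64%). The labels do not say whether replicates, or the 2 strains, were handled on the same day, so strain and day cannot be told apart. The study states 2 independent experiments for its RNA-seq data of flg22 and AvrRpm1, where AvrRps4 is not named. The p-values cover only the spread between samples, which after AvrRps4 may not be a spread between independent experiments.

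Multidimensional scaling placed the strains apart along the first dimension and the genotypes apart along the second. The mean distance between genotypes was 2.69 after AvrRpm1 and 2.49 after AvrRps4. For the 2 strains within wild type the mean distance was 2.46, and within camta3-D it was 2.96. The 4 groups did not overlap in this plane, and the distances between groups were larger than every distance between replicates.

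**Figure D1:**
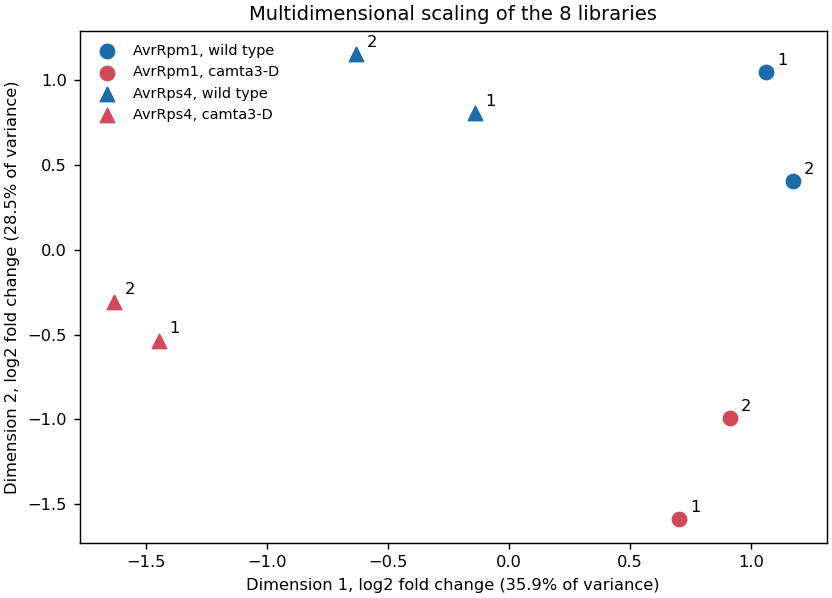
Multidimensional scaling of the 8 libraries, with both axes in log2 fold change (35.9 and 28.5% of variance); colour gives the genotype, shape the strain and the digit the replicate. Libraries after AvrRpm1 lie at 0.703 to 1.17 on dimension 1 and those after AvrRps4 at -1.63 to -0.141.

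The interaction passed the test in 4 of 19167 genes (0.0209%), 1 above 0 (0.00522%) and 3 below 0 (0.0157%), at an adjusted p under 0.05 (quasi-likelihood F test of edgeR, p-values adjusted by Benjamini-Hochberg over every gene tested). These were AT3G29240, AT2G16630, AT2G41640 and NAP. At an unadjusted p under 0.05 there were 2981 genes (15.6%), 1358 above 0 (7.09%) and 1623 below 0 (8.47%), and the DESeq2 Wald test called 594. The median interaction over all genes was -0.004, the middle 90% of genes lay between -0.92 and 1.15, and the median standard error was 0.26. In size, 1194 genes had an interaction over 1 and 834 one under -1.

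The 250 bases before the start of each of the 4 genes were read from the RefSeq genome (TAIR10.1), to show the sequence upstream of the genes whose genotype effect differed between strains. CAMTA proteins are known to bind CGCG and CGTG cores, and WRKY factors a TTGAC core, so 3 motifs were searched on both strands. The first was CGCG, which reads the same on either strand. The second was CGTG, read as CACG on the other strand, and the third was TTGAC, read as GTCAA. Capitals mark the second motif in either reading, which share bases where they run together, and all 3 windows are on the plus strand.
AT2G16630, chr2:7208858-7209107: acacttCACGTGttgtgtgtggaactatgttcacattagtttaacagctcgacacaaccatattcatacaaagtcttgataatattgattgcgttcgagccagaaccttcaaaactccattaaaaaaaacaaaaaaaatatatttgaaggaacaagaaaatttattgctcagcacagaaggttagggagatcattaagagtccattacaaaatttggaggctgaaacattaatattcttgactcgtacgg
NAP, chr1:26121830-26122079: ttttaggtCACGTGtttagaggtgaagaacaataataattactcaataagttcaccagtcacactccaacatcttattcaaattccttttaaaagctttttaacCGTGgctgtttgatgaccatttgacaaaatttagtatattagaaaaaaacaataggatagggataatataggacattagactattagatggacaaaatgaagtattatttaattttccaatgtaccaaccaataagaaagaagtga
AT2G41640, chr2:17360124-17360373: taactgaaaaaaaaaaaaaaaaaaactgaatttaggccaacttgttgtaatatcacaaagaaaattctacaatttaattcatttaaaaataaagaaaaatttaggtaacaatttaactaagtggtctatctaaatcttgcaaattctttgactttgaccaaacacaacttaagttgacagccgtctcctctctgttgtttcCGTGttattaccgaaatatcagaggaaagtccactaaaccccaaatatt
No window of the 4 genes held CGCG, which 10.14% of 27438 windows of protein-coding genes held. Each of the 4 held CGTG, against 45.6% of all windows, and each held TTGAC, against 44.9%. In AT3G29240 the CGTG lay in a stretch shared with an exon of the neighbouring gene AT3G29230. The TTGAC of this window also lay in that stretch or reached into it, as the 67 bases free of the exon held neither motif. The window (chr3:11191013-11191262) is not printed. A match is a description of these letters only.

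AT3G29240, which the annotation names a PPR containing protein of the DUF179 family and places on chromosome 3 (11191263 to 11193044), was at 347 and 340 CPM (counts scaled to a common library size) in wild type after AvrRpm1 and at 149 and 129 CPM in camta3-D. After AvrRps4 it was at 135 and 144 CPM in wild type and at 199 and 173 CPM in camta3-D. Wild type after AvrRpm1 was high and did not overlap the other 3 groups, and camta3-D lay below wild type after AvrRpm1 and above it after AvrRps4. The genotype effect was -1.302 (SE 0.12, adjusted p = 8.06e-04) after AvrRpm1 and 0.42 (SE 0.12, adjusted p = 0.066) after AvrRps4, and the interaction was -1.72 (SE 0.16, adjusted p = 0.0122).

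NAP (AT1G69490, chromosome 1, 26122080 to 26123514), a NAC transcription factor known for driving leaf senescence and acting in abscisic acid responses, had the same order of groups. Its levels were 53.5 and 47.2 CPM in wild type and 15.3 and 14.7 CPM in camta3-D after AvrRpm1. After AvrRps4 they were 19.2 and 21.5 CPM in wild type and 24.1 and 26.7 CPM in camta3-D. Again wild type after AvrRpm1 was the high group, no groups overlapped, and camta3-D after AvrRpm1 was the lowest. The genotype effect was -1.75 (SE 0.16, adjusted p = 8.06e-04) after AvrRpm1 and 0.32 (SE 0.15, adjusted p = 0.242) after AvrRps4, with an interaction of -2.07 (SE 0.22, adjusted p = 0.0152).

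AT2G41640, a glycosyltransferase family 61 gene on chromosome 2 (17360374 to 17363788), was at 17.2 and 18.9 CPM in wild type after AvrRpm1 and at 18.9 and 23.0 CPM after AvrRps4, a difference of -0.21 between strains with a 95% interval from -0.51 to 0.08. In camta3-D it was at 7.85 and 7.11 CPM after AvrRpm1 and at 27.8 and 31.6 CPM after AvrRps4. The camta3-D libraries thus lay below all wild-type libraries after one strain and above them after the other. The interaction was -1.77 (SE 0.19, adjusted p = 0.0152), from genotype effects of -1.27 (adjusted p = 0.0018) and 0.50 (adjusted p = 0.0545).

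AT2G16630 (chromosome 2, 7209108 to 7211134), which encodes a Pollen Ole e 1 allergen and extensin family protein, moved the other way. It was at 33.4 and 29.0 CPM in wild type and at 75.01 and 77.2 CPM in camta3-D after AvrRpm1. After AvrRps4 it was at 68.7 and 76.4 CPM in wild type and at 43.0 and 47.7 CPM in camta3-D. Wild type after AvrRpm1 and camta3-D after AvrRps4 were the low groups, and the genotypes did not overlap after either strain. Both genotype effects passed the test, at 1.29 (adjusted p = 0.0015) and -0.68 (adjusted p = 0.0257), and the interaction was 1.96 (SE 0.19, adjusted p = 0.0122).

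The calls depended on single libraries. Without replicate 1 of wild type after AvrRpm1, or without replicate 1 of wild type after AvrRps4, no gene was called, while the interactions of the 4 genes stayed between 1.87 and 2.07 for AT2G16630, -2.15 and -1.97 for NAP, -1.92 and -1.64 for AT2G41640 and -1.83 and -1.61 for AT3G29240 with each library left out. Without replicate 2 of camta3-D after AvrRpm1, 3 genes were called, AT2G16630 and AT3G29240 among them.

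Next in order of p stood AT2G17880 and ASN1, both at an adjusted p of 0.0505. ASN1, the dark- and starvation-induced asparagine synthase, was at 35.6 and 35.7 CPM in wild type and at 25.6 and 21.6 CPM in camta3-D after AvrRpm1. After AvrRps4 it was at 115 and 75.1 CPM in wild type and at 855 and 435 CPM in camta3-D. The camta3-D libraries after AvrRps4 were above all others by a wide margin, although they also differed from each other. The interaction was -3.36 (SE 0.43), from a genotype effect of -0.60 (adjusted p = 0.307) after AvrRpm1 and 2.76 (adjusted p = 0.0044) after AvrRps4. Its adjusted p was under 0.05 in 8 of 14 alternative settings.

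**Figure D2:**
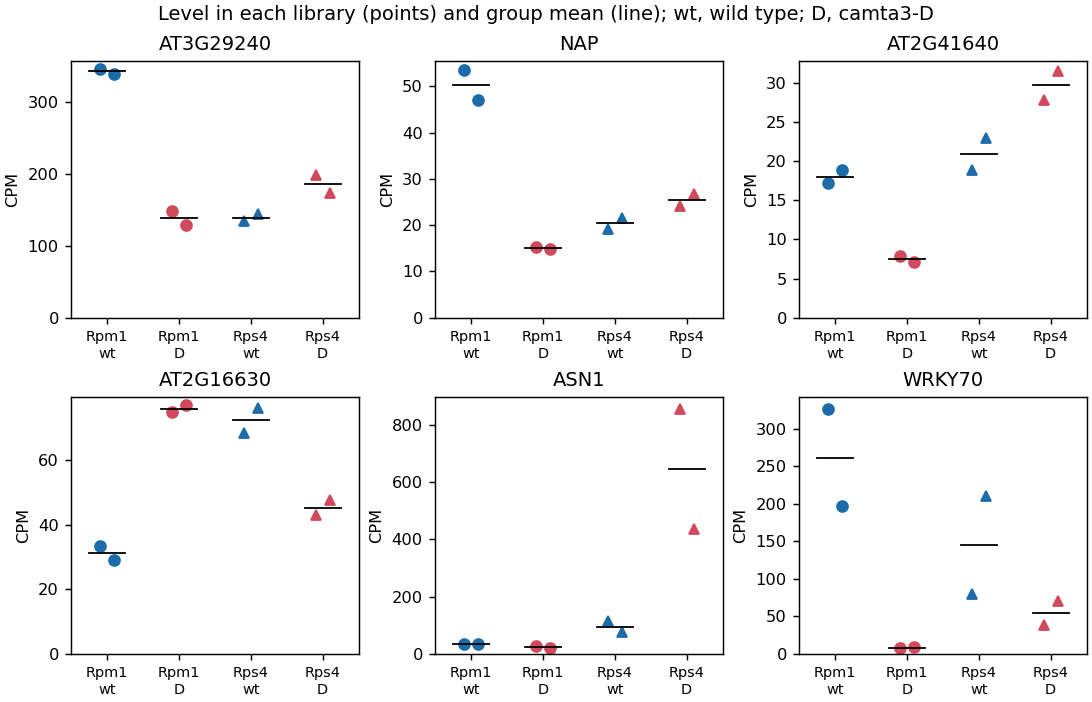
Level in CPM (linear axis from 0) of the 4 genes called in the interaction, ASN1 and WRKY70 in each of the 8 libraries; points are libraries, lines are group means, blue is wild type and red camta3-D. The camta3-D groups lie on opposite sides of wild type after the 2 strains in the first 4 panels, and ASN1 reaches 855 and 435 CPM only in camta3-D after AvrRps4.

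The genotype comparisons within each strain share no library and can be set side by side. After AvrRpm1, 867 genes were called (4.52%), 214 higher (1.12%) and 653 lower (3.41%) in camta3-D. After AvrRps4, 944 were called (4.93%), 477 higher (2.49%) and 467 lower (2.44%). These counts depended on single libraries. Fits without replicate 2 of wild type are not listed here. The ranges over all libraries left out, given below, also reach above the main counts of lower genes. With 1 library of the comparison left out, the counts after AvrRpm1 were 20 higher and 114 lower (wild type replicate 1), 136 and 187 (camta3-D replicate 1) and 94 and 382 (camta3-D replicate 2). After AvrRps4 they were 34 higher and 60 lower (wild type replicate 1), 47 and 25 (camta3-D replicate 1) and 44 and 31 (camta3-D replicate 2). In all, 237 genes were called after both strains, which is 27.3% of the calls after AvrRpm1 and 25.1% of those after AvrRps4. Of these, 164 were lower in camta3-D both times, 62 were higher both times and 11 had opposite directions. Across the 19167 genes the 2 genotype effects had a Pearson r of 0.303 and a Spearman rho of 0.223, a description across genes of the same libraries, which are not independent replicates. Genes called lower after AvrRpm1 had a median genotype effect of -1.15 there and -0.46 after AvrRps4. Genes called lower after AvrRps4 had a median of -1.003 there and -0.43 after AvrRpm1. These medians are taken over genes chosen for passing in one comparison and say nothing of a difference between strains.

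**Figure D3:**
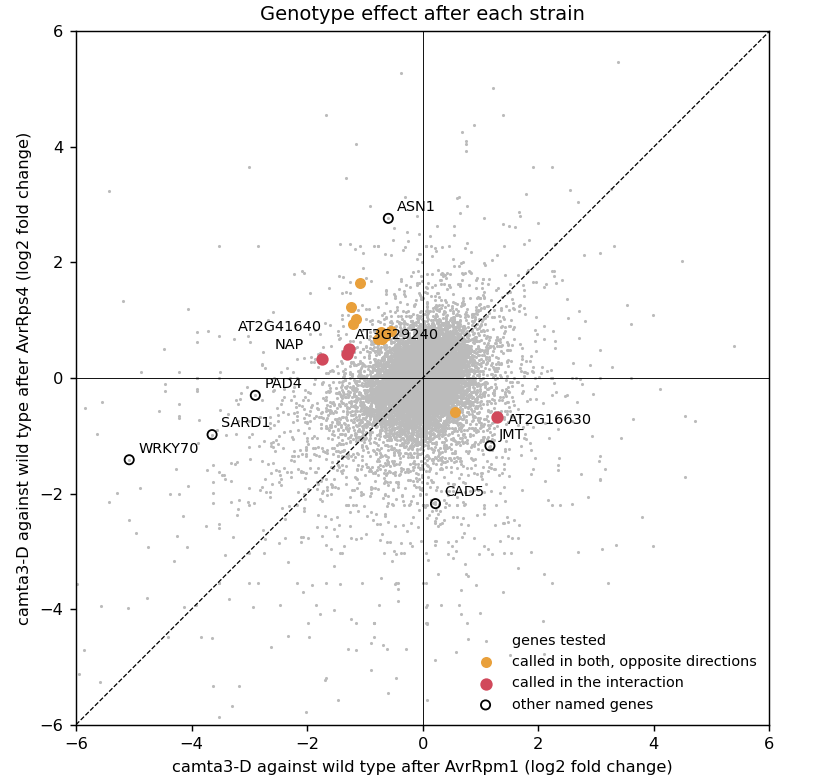
Genotype effect (log2 fold change, camta3-D against wild type) of each gene tested after AvrRpm1 (horizontal) and AvrRps4 (vertical), with equal effects on the dashed line; 24 genes lie outside the limits of 6. Red points are the 4 genes called in the interaction, orange points the genes called after both strains in opposite directions (AT2G16630 is in both sets and drawn red), and open circles other named genes.

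Of the 11 genes with opposite directions, 9 were lower in camta3-D after AvrRpm1 and higher after AvrRps4. These were DIN1, J8, ALDH11A3, BAS1, SPL3, LBD41, AT2G02060, AT3G49160 and AT3G51000. AT2G16630 and AT1G57610 had the reverse pattern. All 11 were named because of these values, and their interaction is not independent of that choice. DIN1, a senescence and sugar-starvation gene that responds to darkness, was at 186 and 247 CPM in wild type and 92.7 and 102 CPM in camta3-D after AvrRpm1, and at 473 and 348 against 850 and 814 CPM after AvrRps4. The DnaJ-type chaperone gene J8 was at 918 and 856 against 561 and 528 CPM after AvrRpm1 and at 692 and 752 against 1072 and 1240 CPM after AvrRps4. In both genes the order of the genotypes turned over between the strains with no overlap. The split of 9 and 2 was not stable. It was 4 and 3 with the replicate block and 14 and 13 by the DESeq2 Wald test. In most fits with 1 library left out, the reverse pattern was the more frequent or no gene was left, so no prevailing direction can be read from it. The count of 11 was not stable either. It was 3 without replicate 2 of camta3-D after AvrRpm1, of which 1 was among the 11, and 0 to 20 over the 8 libraries left out in turn.

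The same interaction can be read as a change of the strain difference between genotypes. AvrRpm1 against AvrRps4 gave 719 called genes in wild type (3.75%) and 4383 in camta3-D (22.9%). NAP was higher after AvrRpm1 in wild type, by 1.305 (adjusted p = 0.0057), and lower in camta3-D, at -0.76 (adjusted p = 0.0085). AT3G29240 did the same, at 1.301 (adjusted p = 0.0044) and -0.42 (adjusted p = 0.0281). ASN1 was lower after AvrRpm1 in both genotypes, at -1.41 (adjusted p = 0.0338) in wild type and -4.77 (adjusted p = 2.48e-04) in camta3-D. The counts in the 2 genotypes also differ in the spread of their replicates, and their difference was not tested.

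No gene of the lists on sensing AvrRpm1 or AvrRps4 was called in the interaction. CAMTA3 itself was at 68.2 and 59.3 CPM in wild type and 49.9 and 50.6 CPM in camta3-D after AvrRpm1, and at 87.0 and 122 against 95.05 and 124 CPM after AvrRps4. Its level followed the strain more than the genotype, and its interaction was -0.41 with a 95% interval from -0.96 to 0.13. The camta3-D allele is a substitution, so the count of its transcript does not check the genotype label.

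RPM1, the receptor for AvrRpm1, was at 20.3 and 18.0 CPM in wild type and 13.7 and 19.9 CPM in camta3-D after AvrRpm1, and at 12.3 and 14.8 against 13.0 and 14.8 CPM after AvrRps4, so the genotypes overlapped after both strains. Its interaction was -0.23 (95% interval -0.78 to 0.32). RIN4, the guarded protein, was at 33.2 and 27.8 against 14.0 and 17.3 CPM after AvrRpm1 and at 23.0 and 26.1 against 20.2 and 19.7 CPM after AvrRps4. It was lower in camta3-D without overlap after both strains, and the gap was wider after AvrRpm1, where it passed the test (-0.96, adjusted p = 0.0046). The interaction of RIN4 was -0.66 (95% interval -1.07 to -0.26, adjusted p = 0.156). NDR1 had an interaction of -0.85 (adjusted p = 0.267), and AT4G26090, which encodes the RIN4-guarding receptor RPS2, one of -1.09 (adjusted p = 0.141), with levels of 42.0 and 32.8 against 10.3 and 11.7 CPM after AvrRpm1 and of 20.03 and 30.2 against 14.4 and 17.1 CPM after AvrRps4. Over the 9 genes of AvrRpm1 sensing, the median interaction was -0.04. Of these, 3 lay below 0 at an unadjusted p under 0.05, where 8.47% of all genes did. RPS2 was among the 3, although the study names AvrRpt2, and not AvrRpm1, as the effector that it recognizes.

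The AvrRps4 side leaned more. Of its 14 genes, 13 had an interaction below 0, the median was -0.82 against -0.004 over all genes, and 7 lay below 0 at an unadjusted p under 0.05, where 8.47% of all genes did. In this list, 6 members were called lower in camta3-D after AvrRpm1 (3.41% of all genes) and 1 after AvrRps4 (2.44%), and no member's interaction was called. RPS4 had the smallest p. It was at 26.1 and 23.9 CPM in wild type and 16.4 and 17.3 CPM in camta3-D after AvrRpm1, and at 21.7 and 23.8 against 25.2 and 26.5 CPM after AvrRps4. The camta3-D libraries after AvrRpm1 were the low group, below the other 6 libraries, and the interaction was -0.75 (SE 0.15, adjusted p = 0.103). Its partner RRS1, whose gene lies beside RPS4, gave 0.06 (95% interval -0.33 to 0.44).

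PAD4, which joins EDS1 in signalling, was at 78.0 and 28.1 CPM in wild type and 5.47 and 8.81 CPM in camta3-D after AvrRpm1. After AvrRps4 it was at 69.3 and 149 against 62.8 and 115 CPM. Camta3-D after AvrRpm1 was low, while the genotypes overlapped after AvrRps4 and the replicates of wild type differed by more than 2-fold after both strains. Its interaction was -2.60 (SE 0.73, adjusted p = 0.162). EDS1 had an interaction of -1.34 (95% interval -2.72 to 0.04), with levels of 84.7 and 36.0 against 17.0 and 21.1 CPM after AvrRpm1 and of 62.5 and 113 against 48.3 and 91.7 CPM after AvrRps4, and its near-identical neighbour EDS1B may share reads with it. The interaction of SAG101 was -0.62 (adjusted p = 0.226). The 3 ADR1-type helper receptors, named after their values were seen, were at -1.05 (ADR1), -1.02 (ADR1-L1) and -1.10 (ADR1-L2). Over fits that each lacked 1 library, the median of the list stayed between -1.10 and -0.62, but 4 to 11 members lay below 0 at an unadjusted p under 0.05. There were 4 without replicate 1 of wild type after AvrRpm1, of camta3-D after AvrRpm1 or of wild type after AvrRps4, and without replicate 2 of camta3-D after AvrRps4. There were 11 without replicate 2 of wild type after AvrRps4.

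**Figure D4:**
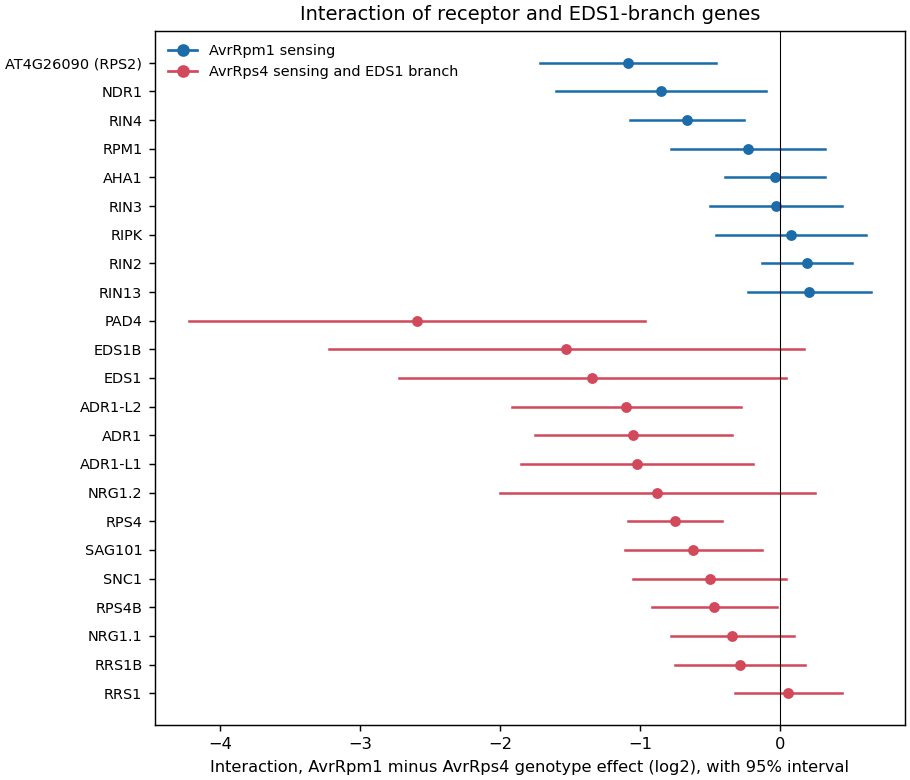
Interaction (log2, AvrRpm1 minus AvrRps4 genotype effect) with its 95% interval for the 9 genes of AvrRpm1 sensing (blue) and the 14 genes of AvrRps4 sensing and the EDS1 branch (red). The intervals are not adjusted for the number of genes, and 13 of the 14 red points lie below 0.

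Of 31 salicylic acid genes tested, 20 were called lower in camta3-D after AvrRpm1, where 3.41% of all genes were, and 7 after AvrRps4, where 2.44% were. The median genotype effects of the list were -2.26 and -1.26. The median interaction was -0.91, and 28 members were below 0. At an unadjusted p under 0.05, 10 lay below 0, where 8.47% of all genes did, while none was called in the interaction. With 1 library left out, 8 to 15 members lay below 0 at that p, and the median was -0.55 without replicate 1 of wild type after either strain and -1.605 without replicate 2 of wild type after AvrRps4. In this list, 6 members had 0 counts in at least 1 library, and the median was -0.91 without them as well. The list was written with results for these genes known and is no independent evidence of its direction.

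WRKY70, a transcription factor of the salicylic acid pathway, was at 326 and 197 CPM in wild type and 7.03 and 8.46 CPM in camta3-D after AvrRpm1. After AvrRps4 it was at 80.2 and 210 against 38.6 and 70.3 CPM. The camta3-D libraries were below wild type both times, but the gap was far larger after AvrRpm1, and the interaction was -3.66 (SE 0.81, adjusted p = 0.116). SARD1, an activator of salicylic acid synthesis genes, was at 81.6 and 39.9 against 4.69 and 5.02 CPM after AvrRpm1 and at 56.6 and 120 against 32.1 and 57.6 CPM after AvrRps4. The genotypes were apart after AvrRpm1 and overlapped after AvrRps4, with an interaction of -2.66 (adjusted p = 0.126). CBP60g, the related activator, did not follow. It was at 31.8 and 16.8 against 5.79 and 23.4 CPM after AvrRpm1 and at 64.7 and 108 against 64.7 and 109 CPM after AvrRps4, and its interaction of -0.75 had a 95% interval from -2.45 to 0.94. The replicates of camta3-D after AvrRpm1, at 5.79 and 23.4 CPM, lay on both sides of the lower wild-type library.

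LURP1 and UGT76B1, chosen after their values were seen, had large genotype effects after both strains. LURP1, a gene needed for resistance to an oomycete, was at 540 and 376 against 0.887 and 1.502 CPM after AvrRpm1 and at 43.3 and 74.1 against 1.26 and 1.01 CPM after AvrRps4. UGT76B1, which glucosylates salicylic acid and N-hydroxypipecolic acid, was at 131 and 176 against 0.355 and 1.70 CPM after AvrRpm1 and at 8.25 and 7.05 against 0.267 and 0.364 CPM after AvrRps4. In both genes camta3-D was under 2 CPM after either strain, and the wild-type level differed between strains. Their interactions were -2.91 (adjusted p = 0.126) and -2.67 (adjusted p = 0.226).

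The RT-qPCR genes of the study, 8 targets that include SARD1, CBP60g and CML37, had a median interaction of -0.71 with 6 below 0 and 0 called. The median was -0.18 without replicate 1 and -2.10 without replicate 2 of camta3-D after AvrRpm1, -0.41 without replicate 1 and -1.27 without replicate 2 of wild type after AvrRps4, and -0.27 without replicate 2 of camta3-D after AvrRps4. The study picked these genes, so the list is no independent evidence of its direction. BON3 and AT5G41730 were close to absent. BON3 had 0 and 3 counts in wild type and 0 and 1 in camta3-D after AvrRpm1, and 2 and 3 against 4 and 6 after AvrRps4, and the fitted fold changes of genes this low depend on the prior count and are no bound. DLAH was at -1.39 (95% interval -2.93 to 0.15), AT4G39670 at -0.66 (95% interval -2.04 to 0.73) and CML37, a calmodulin-like gene, at -0.20 (95% interval -3.17 to 2.77). TAT3, a tyrosine aminotransferase gene induced by jasmonate, was lower in camta3-D after both strains (-2.75 and -3.03, adjusted p = 0.0114 and 0.0132), with an interaction of 0.28 (95% interval -1.18 to 1.73).

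Jasmonate genes leaned to the other side. Of 38 tested, 29 had an interaction above 0, the median was 0.53, and 12 lay above 0 at an unadjusted p under 0.05 against 1 below, where 7.09% of all genes lay above 0. No member was called in the interaction, 1 member was called higher and 2 lower after AvrRpm1 (1.12 and 3.41% of all genes), and 6 were called lower after AvrRps4 (2.44%). JMT, which methylates jasmonic acid, had the smallest p. It was at 2.76 and 1.63 CPM in wild type and 5.82 and 3.99 CPM in camta3-D after AvrRpm1, and at 0.893 and 0.803 against 0.382 and 0.364 CPM after AvrRps4. Camta3-D was above wild type after the first strain and below it after the second, at levels that stayed low, and the interaction was 2.34 (SE 0.51, adjusted p = 0.112). Without replicate 2 of camta3-D after AvrRpm1, 12 members lay above 0 and 3 below 0 at an unadjusted p under 0.05, and the median was 0.25. The median was 0.27 without replicate 1 and 0.97 without replicate 2 of wild type after AvrRpm1.

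AOS, AOC1 and AOC2, genes of jasmonate synthesis, were named after their values were seen. AOS, the allene oxide synthase gene, was at 187 and 191 against 143 and 129 CPM after AvrRpm1 and at 357 and 330 against 146 and 186 CPM after AvrRps4. The wild type was the high group after AvrRps4. Its genotype effect passed the test after AvrRps4 (-1.05, adjusted p = 0.0126) and was -0.48 after AvrRpm1 (adjusted p = 0.152), and the interaction was 0.57 (adjusted p = 0.29). AOC1 and AOC2, neighbouring near-identical cyclase genes whose reads cannot be assigned with certainty, were called lower in camta3-D after AvrRps4 (-2.04 and -1.65, adjusted p = 0.0063 and 0.0060) and had interactions of 1.44 and 1.15. MYC3, a transcription factor released by jasmonate, was the 1 member below 0 at an unadjusted p under 0.05, at -0.70 (adjusted p = 0.126).

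Genes that make tryptophan, camalexin or indole glucosinolates had a median interaction of 0.72 over 27 genes. At an unadjusted p under 0.05, 7 lay above 0 and 0 below, against 7.09 and 8.47% of all genes. After AvrRps4, 10 were called lower in camta3-D, where 2.44% of all genes were, and after AvrRpm1 1 was, where 3.41% were. UGT74B1, a glucosyltransferase of glucosinolate synthesis, was at 22.9 and 23.8 against 22.6 and 24.4 CPM after AvrRpm1 and at 33.0 and 51.3 against 18.6 and 25.6 CPM after AvrRps4, so the genotypes overlapped after AvrRpm1 and lay apart after AvrRps4. Its interaction was 0.94 (adjusted p = 0.194). The phenylpropanoid and flavonoid list had a median of 0.76 over 15 genes. It had 7 above 0 and 0 below at an unadjusted p under 0.05, against 7.09 and 8.47% of all genes. CAD5, a lignin-pathway dehydrogenase, was at 92.3 and 113 against 76.8 and 163 CPM after AvrRpm1 and at 150 and 64.1 against 19.8 and 27.7 CPM after AvrRps4. Its interaction of 2.39 (SE 0.61, adjusted p = 0.137) went with camta3-D libraries after AvrRps4 that lay below the other 6.

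These lists moved with single libraries, those of camta3-D after AvrRpm1 among them. PAL1, which opens the phenylpropanoid pathway and was named after its values were seen, was at 42.8 CPM in replicate 1 and 220 CPM in replicate 2 of camta3-D after AvrRpm1, and the summed level of the phenylpropanoid list was 674 and 1523 CPM in these libraries. Without replicate 2 of that group, 2 of 27 tryptophan genes and 4 of 15 phenylpropanoid genes lay above 0 at an unadjusted p under 0.05, with medians of 0.34 and 0.41. There were 13 and 10, with medians of 0.81 and 1.12, without replicate 1 of that group. The tryptophan count was 3 without replicate 1 of camta3-D after AvrRps4, and the phenylpropanoid count was 3, with 1 below 0, without replicate 1 of wild type after AvrRps4. The part of the multiply aligned reads in these values was not tested. Aliphatic glucosinolate genes had a median of 0.52 over 14 genes with 0 on either side at an unadjusted p under 0.05. That median had no stable sign, being -0.34 without replicate 1 of camta3-D after AvrRpm1, -0.21 without replicate 2 of wild type after AvrRps4 and up to 1.29 with another library left out. SOT17, a sulfotransferase of that pathway, had an interaction of 1.42 (95% interval -0.03 to 2.87).

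Calcium signalling genes had a median interaction of -0.48 over 35 genes, with 3 above and 8 below 0 at an unadjusted p under 0.05, where 7.09 and 8.47% of all genes lay. The counts moved with single libraries. Without replicate 1 of camta3-D after AvrRpm1, 6 were above and 4 below 0 and the median was -0.12, and without replicate 2 of that group they were 1 and 10, with -0.64. Without replicate 1 of wild type after AvrRpm1 they were 1 and 4, without replicate 1 of wild type after AvrRps4 1 and 3, and without replicate 2 of camta3-D after AvrRps4 2 and 3. CAM7, a calmodulin gene whose transcript is close in sequence to those of other calmodulins and may share reads with them, was at 51.4 and 51.8 against 64.1 and 68.3 CPM after AvrRpm1 and at 49.0 and 46.3 against 37.6 and 36.7 CPM after AvrRps4. The order of the genotypes turned over between strains with no overlap, and the interaction was 0.72 (SE 0.13, adjusted p = 0.0962). CNGC11, a cyclic nucleotide-gated channel gene named after its values were seen, was at 72.7 and 36.3 against 2.88 and 3.64 CPM after AvrRpm1 and at 16.5 and 27.2 against 4.93 and 7.08 CPM after AvrRps4, lower in camta3-D both times. Its interaction was -2.20 (adjusted p = 0.174).

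Sugar starvation genes had a median interaction of -0.60 over 10 genes. ASN1 and DIN1 were among the 3 below 0 at an unadjusted p under 0.05, where 8.47% of all genes lay. Abscisic acid genes had a median of -0.30 over 16 genes, and NAP was the 1 member called. Of them, 3 lay below 0 at an unadjusted p under 0.05, against 8.47% of all genes. ABF3, an abscisic acid response factor named after its values were seen, was at 35.0 and 38.3 against 25.1 and 25.97 CPM after AvrRpm1 and at 29.8 and 34.9 against 51.8 and 48.1 CPM after AvrRps4. Its genotypes were in opposite order after the 2 strains without overlap, with an interaction of -1.15 (adjusted p = 0.0664).

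WRKY factors had a median interaction of -0.12 over 33 genes. At an unadjusted p under 0.05, 3 were above and 6 below 0, against 7.09 and 8.47% of all genes. Without replicate 1 of camta3-D after AvrRpm1, 10 were above and 3 below 0 and the median was 0.29, and without replicate 2 of that group 1 was above and 9 were below 0 and the median was -0.73. Without replicate 2 of wild type after AvrRps4, 7 were above and 4 below 0. WRKY25, a regulator of heat and defence responses, was higher in camta3-D after both strains, at 51.7 and 47.9 against 78.5 and 82.5 CPM after AvrRpm1 and 32.6 and 32.9 against 82.5 and 89.2 CPM after AvrRps4. Camta3-D reached a like level after both strains and the wild types differed, for an interaction of -0.70 (SE 0.15, adjusted p = 0.108). Pattern recognition and kinase genes had a median of -0.16 over 30 genes. At an unadjusted p under 0.05, 1 was above and 4 were below 0, against 7.09 and 8.47% of all genes. Without replicate 1 of camta3-D after AvrRpm1 these were 6 and 2, and without replicate 2 of that group 0 and 9. LYK5, a chitin receptor kinase, was at 12.01 and 9.09 against 3.34 and 4.74 CPM after AvrRpm1 and at 6.25 and 7.67 against 9.24 and 7.44 CPM after AvrRps4, lower in camta3-D after AvrRpm1 and overlapping after AvrRps4. Its interaction was -1.65 (SE 0.34, adjusted p = 0.103).

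The study chose its 417 immediate-early genes from other samples. They were induced soon after conditional expression of the coiled-coil domain of the receptor MLA, and also by cycloheximide, an inhibitor of protein synthesis. Their median interaction was -0.22 over the 415 tested. At an unadjusted p under 0.05, 18 were above 0 (4.34%) and 59 below (14.2%), against 7.09 and 8.47% of all genes. None was called. Without replicate 2 of camta3-D after AvrRpm1, 9 were above and 102 below 0, with a median of -0.39, and without replicate 1 of that group 45 were above and 30 below 0, with a median of -0.07. Without replicate 2 of camta3-D after AvrRps4, 26 were above and 26 below 0, with a median of -0.06, and without replicate 1 of that group 6 were above and 95 below 0. The member with the smallest p, the thaumatin-family gene AT4G36010, lay above 0, at 1.56 (SE 0.32, adjusted p = 0.103). Of these genes, 12 were called higher and 26 lower in camta3-D after AvrRpm1, against 1.12 and 3.41% of all genes, and 13 higher and 8 lower after AvrRps4, against 2.49 and 2.44%.

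No member of the remaining nuclear lists was called. Ethylene genes had a median of -0.24 over 18 genes and ACO4, an ethylene-forming enzyme, an interaction of -0.74 (adjusted p = 0.137). Cell death genes had a median of -0.25 over 20 genes, and LOL1, a zinc-finger gene that promotes cell death, one of 0.83 (adjusted p = 0.126). The median was -0.05 over 4 receptor chaperones, with SGT1A at -1.06 (adjusted p = 0.243). It was -0.24 over 6 CAMTA genes, with CAMTA5 at -0.30 (95% interval -0.60 to 0.00), and close to 0 for the rapid stress factors, which include ERF104 at -1.43 (adjusted p = 0.196). The median was 0.05 for cold regulation (ICE1 at -0.34) and -0.02 for heat shock genes (HSFB2A at -1.30). These medians had no stable sign with 1 library left out. They ran from -0.63 to 0.52 for rapid stress factors, from -0.30 to 0.41 for cold regulation and from -0.42 to 1.065 for heat shock genes. Nuclear photosynthesis genes had a median of -0.06 (PSBS at 0.56) and clock genes one of -0.23 (PRR7 at -0.62).

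Chloroplast-encoded genes had a median interaction of 0.63 over 83 genes, with ATCG00470 at 0.70 (adjusted p = 0.195). Of them, 80 were above 0, and 17 were so at an unadjusted p under 0.05, where 7.09% of all genes were. Their summed level was 11235 and 11684 CPM in wild type and 10989 and 14422 CPM in camta3-D after AvrRpm1, and 13983 and 10921 against 8745 and 8747 CPM after AvrRps4. The highest of these values was that of replicate 2 of camta3-D after AvrRpm1, and without that library 4 genes were above and 2 below 0 at an unadjusted p under 0.05 and the median was 0.25. The count above 0 was 52 and the median 0.90 without replicate 1 of that group. Plastid transcripts mostly lack poly(A) tails, so their share in these libraries depends on the selection of polyadenylated RNA, and the part of that step in the result was not tested. The 25 mitochondrion-encoded genes had a median of 0.34, with 15 above and 10 below 0, and ATMG00730 was close to absent. At an unadjusted p under 0.05, 0 lay on either side, against 7.09 and 8.47% of all genes. That median had no stable sign, running from -0.14 to 0.69 with 1 library left out.

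Markers of other leaf cell types were not called in the interaction. Their summed levels ranged from 1429 to 2010 CPM for 8 epidermis genes, from 1520 to 2219 CPM for 7 guard cell genes, from 390 to 635 CPM for 7 phloem genes and from 8.50 to 17.5 CPM for 6 genes of dividing cells. LACS2, an epidermal cutin gene, had the smallest p, with 28.8 and 20.6 against 50.9 and 38.4 CPM after AvrRpm1 and 39.1 and 31.7 against 19.2 and 26.8 CPM after AvrRps4, an opposite order after the 2 strains without overlap. Its interaction was 1.48 (SE 0.30, adjusted p = 0.103). LACS2 did not stand for its list, whose median interaction was 0.19, with 5 members above 0 and 3 below. At an unadjusted p under 0.05, 1 epidermis gene lay above 0 and 2 below, against 7.09 and 8.47% of all genes. MYB60 of guard cells was at 0.74, against a median of -0.14 over its list, where 5 of 7 members lay below 0. APL of the phloem was at 0.45, with a list median of 0.18 and 6 of 7 members above 0. CDKB1;1 of dividing cells was at 0.79 with only 8 to 22 counts a library. Its list had a median of 0.07, with 3 members above and 3 below 0. In such tissue samples, fewer cells of a type and less RNA per cell cannot be told apart.

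**Figure D5:**
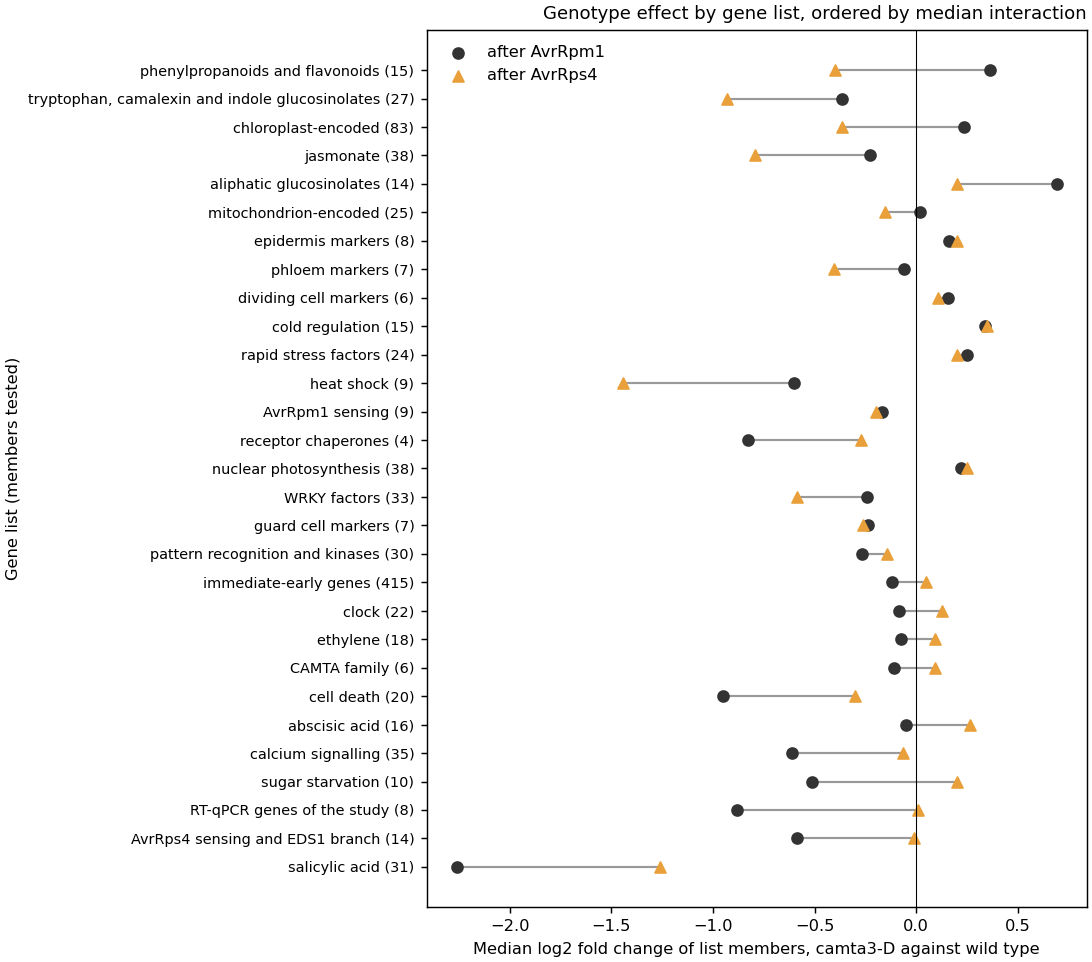
Median genotype effect (log2 fold change, camta3-D against wild type) over the tested members of each of the 29 lists, after AvrRpm1 (circles) and after AvrRps4 (triangles), ordered by the median interaction of the members. Salicylic acid stands at the bottom, with medians of -2.26 and -1.26, and phenylpropanoids and flavonoids at the top, with 0.36 and -0.40.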

How the data were processed

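The counts were raw reads per gene and library deposited by the authors. According to the labels and the study's methods, TruSeq (v2) libraries of polyadenylated RNA were checked with FastQC (0.11.2), aligned to TAIR10 with TopHat2 (2.0.10) and counted with HTSeq. The HTSeq version and strand setting are not given in the sources used here, so overlapping and antisense genes cannot be told apart. The table held 32678 genes and 5 summary lines, used only to describe libraries.

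The filterByExpr rule (minimum count 10), applied to all 12 libraries, kept 19167 genes. Applied to only the 8 Pst libraries it kept 18720. Counts were scaled by TMM and fitted with the edgeR (4.0.16) quasi-likelihood model in R (4.3.3), with 6 group means over all 12 libraries and 6 residual degrees of freedom. The interaction and its 4 component comparisons were tested, with Benjamini-Hochberg adjustment over all genes in each, and a gene was called at an adjusted p under 0.05. Standard errors were taken from the log2 fold change and its F statistic. CPM values are TMM-scaled.

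Named genes were called genes averaging 2 log2 CPM or more (up to 12 a direction), from each list the gene of smallest p, and CAMTA3, the RT-qPCR genes and the main receptor and EDS1-branch genes. The comparison, the 29 lists and this rule were chosen with earlier results of these data known. Gene positions and upstream windows came from RefSeq TAIR10.1. Scripts were tested on simulated counts. Alternatives were median-ratio size factors, the DESeq2 (1.42.0) Wald test, no filter, a replicate block, only the 8 Pst libraries, no organelle genes, a stricter threshold, and each library left out. List counts without 1 library were added after seeing the data.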

Additional observations from a re-analysis of the deposited data

Results flagged for a closer look

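The genotype effect of camta3-D differed between the AvrRpm1 and AvrRps4 strains, by the test of the difference itself, in 4 genes. The interaction on the log2 scale was -1.72 for AT3G29240, 1.96 for AT2G16630, -1.77 for AT2G41640 and -2.07 for NAP. Groups of 2 libraries are too small for a test of single libraries that lie far from their group.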

How the results depend on the processing

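With 2 libraries a group, calls rest on a spread borrowed from all 6 groups, and the counts of called genes moved far more than the values of single genes. The counts below are given as higher and lower genes. For the interaction (1 and 3), the DESeq2 Wald test gave 233 and 361, no filter 19 and 32, size factors 5 lower, and the stricter threshold (adjusted p under 0.01, log2 fold change beyond 1 either way) 0 and 0. The Wald test gave 386 and 1114 after AvrRpm1, 868 and 955 after AvrRps4, and 686 and 782 for strains in wild type. The stricter threshold gave 21 and 154, 35 and 36, and 30 and 64, and 333 and 554 for strains in camta3-D. With only the 8 Pst libraries, 141 genes were higher after AvrRpm1. The cause of these differences was not tested, except that the stricter threshold keeps fewer genes by construction.

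Leaving out 1 library at a time, the interaction count ranged from 0 to 83 higher and 0 to 20 lower. The genotype counts ranged from 20 to 192 and 114 to 665 after AvrRpm1, and from 34 to 463 and 25 to 581 after AvrRps4. The strain counts ranged from 28 to 352 and 37 to 508 in wild type, and from 730 to 2005 and 1063 to 2337 in camta3-D. Without replicate 1 of camta3-D after AvrRpm1, 97 genes were called in the interaction, and without replicate 2 of wild type after AvrRps4, 52. AT2G16630, AT3G29240, NAP and AT2G41640 kept their direction in all 14 alternatives and were called in 11, 12, 10 and 8. ASN1 was called in 8 of 14.

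The differences between replicates, taken in the order of their numbers, had correlations from -0.274 to 0.203 between pairs of the 4 groups. These values show no common direction, but they cannot tell whether same-numbered libraries came from the same experiment. The fit with the replicate block called 5 interaction genes, the 4 above among them, and 311 genes lower after AvrRps4 in place of 467.

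Genes whose interaction was near 0 or whose counts were low changed sign with a library left out. The interaction ranged from -4.61 to 1.14 for BON3, from -0.19 to 0.67 for TAT3, from -2.12 to 2.27 for AT5G41730, from -1.32 to 0.72 for CML37, from -0.52 to 0.018 for RPM1 and from -0.095 to 0.20 for RRS1. BON3 and AT5G41730 had 0 counts in some libraries, so their values depend on the prior count of the fit and are no bound.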

Other observations

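Several genes outside the lists stood close behind the called ones, at adjusted p between 0.05 and 0.07 for the interaction, and they were chosen after their values were seen. iPGAM1, a phosphoglycerate mutase gene of glycolysis, was at 95.5 and 118 CPM in wild type and 142 and 169 CPM in camta3-D after AvrRpm1, and at 118 and 116 against 66.1 and 60.3 CPM after AvrRps4. The camta3-D libraries were the highest after the first strain and the lowest after the second, for an interaction of 1.43 (adjusted p = 0.0602). PSK5, a gene for the precursor of a growth-promoting peptide hormone, was at 6.09 and 9.55 against 11.96 and 15.9 CPM after AvrRpm1 and at 24.8 and 21.6 against 9.51 and 10.8 CPM after AvrRps4. Its interaction was 2.02 (adjusted p = 0.0664). EXPA9, an expansin gene that acts in wall loosening, was at 10.3 and 9.87 against 20.02 and 17.9 CPM after AvrRpm1 and at 17.9 and 17.2 against 12.4 and 11.97 CPM after AvrRps4, with an interaction of 1.43 (adjusted p = 0.0664). In all 3 genes the genotypes did not overlap after either strain and their order turned over.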
